A study of Mus musculus with 9 samples.

Results

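The transcripts described here are 9 classical glucocorticoid-induced target genes, *Tsc22d3*, *Fkbp5*, *Sgk1*, *Klf9*, *Ddit4*, *Zbtb16*, *Anxa1*, *Il1r2*, and *Errfi1*. They were taken by gene symbol from count tables of myeloid cells sorted from dystrophic mouse quadriceps, where they were 9 of 50559 genes listed. All 9 passed the low-count filter that left 16618 genes to test. Glucocorticoids bind the glucocorticoid receptor (GR, encoded by *Nr3c1*), which moves from a chaperone complex in the cytoplasm to the nucleus and binds DNA at glucocorticoid response elements. The related mineralocorticoid receptor (MR, *Nr3c2*) recognizes the same elements, and corticosterone, the main glucocorticoid of mice, activates both. In macrophages and neutrophils many of the transcripts raised in this way encode antiinflammatory or feedback proteins, which is why they are used as a readout of receptor activity.

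The study asked how an MR antagonist and a glucocorticoid differ in their effects on inflammation in *mdx* mice, which lack dystrophin and model Duchenne muscular dystrophy. All mice, controls included, were *mdx*, were 4.5 weeks old, and drank sucralose-containing vehicle alone, spironolactone, or prednisolone for 7 days. Each group had 3 libraries, and each library held RNA of CD45+CD11b+ cells from the quadriceps of 3 pooled mice. Mice of both sexes were in every group, and the sexes within each pool are not given in the sources used here. A replicate is therefore a pool. The *P* values set differences between groups against the spread between pools of the same group, estimated over all 9 libraries together. In bulk RNA of this kind, fewer cells of a type and less RNA per cell cannot be told apart.

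Between 31469815 and 32943512 counts fell on genes per library, and the 9 genes had between 132 and 26282 counts in each library. Levels are CPM (counts relative to the library total) after scaling with trimmed mean of M values (TMM) factors of 0.9801 to 1.03. The genes of the sort gate were high throughout, with *Ptprc* (CD45) at 545 to 659.6 CPM and *Itgam* (CD11b) at 978 to 1486 CPM, and the macrophage gene *Adgre1* lay between 617 and 733 CPM. *Itgam* was at 1127, 1264, and 1322 CPM in vehicle replicates 1 to 3. It was at 984, 1170, and 978 CPM with spironolactone and at 1453, 1281, and 1486 CPM with prednisolone, and these drug groups did not overlap. The T-cell genes *Cd3e* and *Cd3g* were at 0.152 to 0.760 CPM and at 0.245 to 2.09 CPM, respectively. *Trbc2* had 0 counts in every library, and a count of 0 cannot tell an absent transcript from reads that were not assigned to the gene. Vehicle replicate 3 and spironolactone replicate 3 stood apart in the summed level of 10 neutrophil genes. It was 4562 and 3416 CPM in these libraries and 779 to 1573 CPM in the other 7. The largest parts of the sum in these libraries were *Ngp* (1369 and 1101 CPM) and *S100a9* (1056 and 749 CPM). Not every gene of the list set spironolactone replicate 3 apart. *Csf3r* and *Cxcr2* were at 525 and 55.3 CPM there, below spironolactone replicate 2 at 592 and 64.3 CPM.

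The DNA around the start sites of these genes is shown first, because both receptors act on their targets through response elements. The letters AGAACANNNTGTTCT, an inverted repeat that is close to the textbook glucocorticoid response element, were searched on both strands within 10 kb on each side of the canonical GENCODE start site in GRCm39. Of 19360 such windows 0.336% held a match, and of the 9 genes only *Sgk1* did. That match is centered at -958 relative to the canonical start site, in an intron of longer *Sgk1* transcripts, at chr10:21869585-21869629 on the plus strand. The capitals below mark the matched letters.

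*Sgk1*: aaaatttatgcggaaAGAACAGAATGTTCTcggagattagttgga

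A looser form, GNACANNNTGTNC, overlaps the first motif by construction and was found in 28.7% of windows. It was found in 3 of the 9 genes, *Sgk1*, *Klf9*, and *Fkbp5*, a share near that background. The *Klf9* match lies upstream of the gene, at -5724, at chr19:23112442-23112484 on the plus strand. *Fkbp5* held 2 matches, one in an exon and one in an intron, and the intronic one lies at 1219 relative to the canonical start site, at chr17:28703912-28703954 on the minus strand. The *Klf9* and the intronic *Fkbp5* match are shown because *Fkbp5* and *Klf9* had the smallest *P* values of the 9 genes with spironolactone.

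*Klf9*: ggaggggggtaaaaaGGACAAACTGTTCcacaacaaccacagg
*Fkbp5*: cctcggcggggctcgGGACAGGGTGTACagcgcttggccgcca

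In the 300 bases of promoter around each canonical start (250 before it and 50 from it on), the looser element was found in none of the 9 genes and in 0.382% of all promoters. The AP-1 letters TGANTCA were also found in none, against 6.93% of promoters. The cAMP response element TGACGTCA, present in 2.6% of promoters, was found in *Errfi1* only, and the E-box CACGTG, present in 8.31%, in *Fkbp5* only. The receptor-binding letters TGTTCT (one arm of the element), present in 16% of promoters, was found in *Il1r2* only, at -221. The *Errfi1* element begins at -46 relative to the start site (chr4:150939461-150939498, plus strand), and the *Fkbp5* E-box at -140 (chr17:28705272-28705307, minus strand). A match describes the letters in these windows and says nothing of occupancy. All 9 genes have further annotated transcript starts, from 2 starts in all for *Klf9* to 21 for *Tsc22d3*. Windows and promoters were placed on the canonical start only. *Tsc22d3* spans 61318 bases, so that its window does not cover the whole gene.

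*Errfi1*: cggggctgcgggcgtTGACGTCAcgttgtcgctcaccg
*Fkbp5*: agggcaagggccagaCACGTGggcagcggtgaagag

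Levels between genes were compared per length, as TPM (length-scaled transcript abundance) in vehicle libraries. *Anxa1* was the most abundant, at 956 ± 132 TPM (SD, *n* = 3), followed by *Sgk1* at 265 ± 71.1, *Il1r2* at 193 ± 86.5, and *Tsc22d3* at 112 ± 8.90. *Errfi1* (31.0 ± 3.90 TPM), *Fkbp5* (25.7 ± 6.03), *Ddit4* (20.8 ± 3.30), and *Klf9* (12.8 ± 1.66) followed, and *Zbtb16* was lowest at 3.75 ± 0.753 TPM. The vehicle libraries of *Sgk1* and *Il1r2* overlapped, as did those of *Il1r2* and *Tsc22d3*, of *Errfi1* and *Fkbp5*, and of *Fkbp5* and *Ddit4*. The other neighbors in this order did not overlap. GR itself was at 52.9 ± 2.51 TPM in vehicle libraries, whereas the MR transcript was near the floor, at 0.205 ± 0.187 TPM with 2 to 30 counts per library over all 9 libraries.

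**Figure D1:**
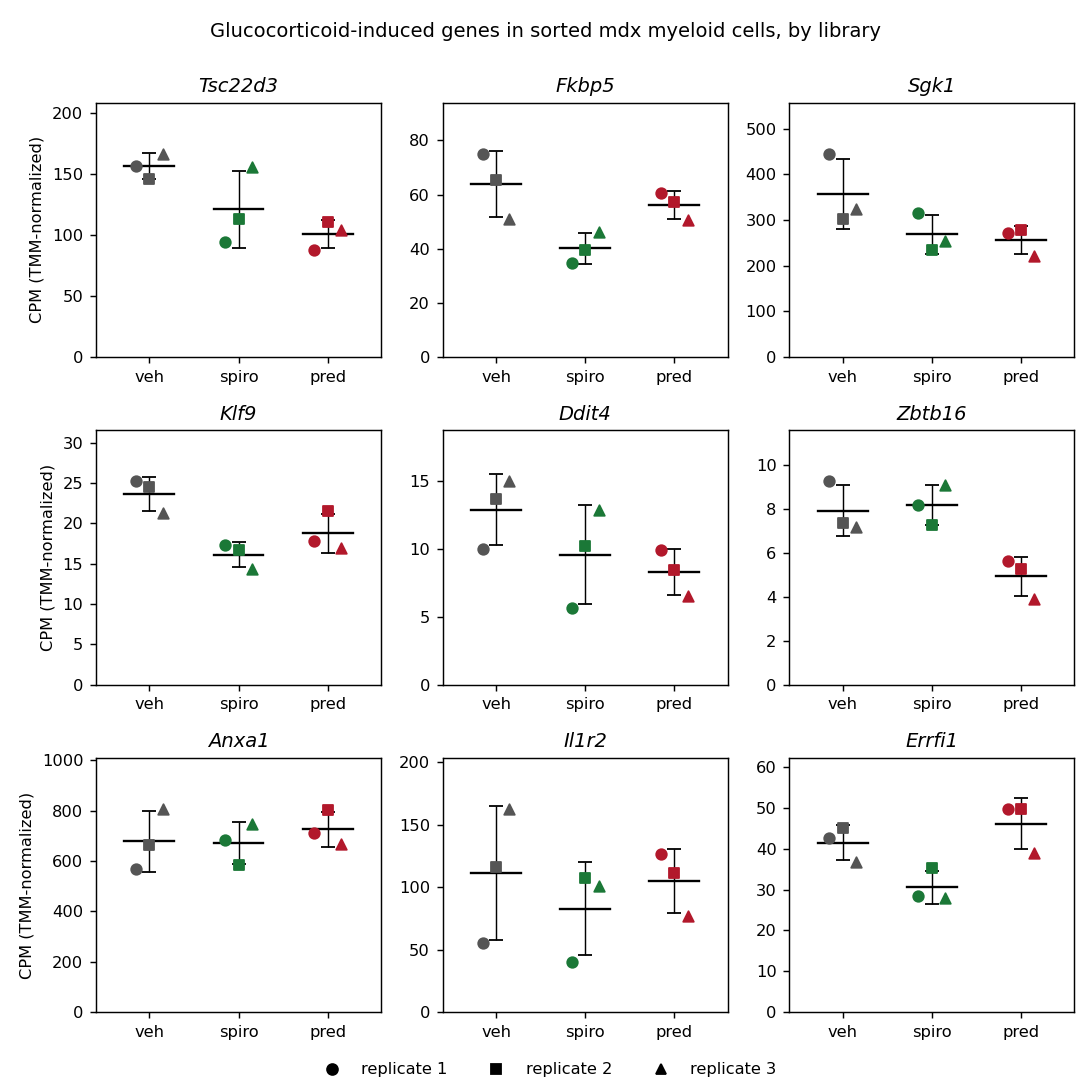
Level of each of the 9 genes in TMM-normalized CPM (y axis, linear from 0) in the vehicle (veh), spironolactone (spiro), and prednisolone (pred) libraries; symbols are single libraries, horizontal lines are means, and bars are ± SD (n = 3). The 3 prednisolone libraries of *Tsc22d3* (87.9 to 110.2 CPM) and *Zbtb16* (3.92 to 5.62 CPM) lie below all vehicle libraries, and the 3 spironolactone libraries of *Fkbp5* (34.8 to 46.2 CPM) and *Klf9* (14.4 to 17.3 CPM) lie below all vehicle libraries.

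After 7 days of prednisolone, none of the 9 genes was called as changed from vehicle, and most estimates lay below 0. Differences were tested with the quasi-likelihood test of edgeR on all 9 libraries, two-sided, and genes with an adjusted *P* (Benjamini-Hochberg, over the 16618 genes) under 0.05 were called. Of the 9 genes 0 were called with prednisolone, where 1.76% of all genes tested were called. DESeq2 called 3 (*Tsc22d3*, *Sgk1*, and *Zbtb16*, all lower), where it called 4.64% of the genes it gave an adjusted *P*, and limma-voom called 0, where it called 1.58%. At an unadjusted *P* under 0.05, 5 of the 9 were lower than vehicle (*Tsc22d3*, *Zbtb16*, *Sgk1*, *Klf9*, and *Ddit4*) and 0 were higher, where 7.07% of all genes were lower at this level. All prednisolone libraries lay below all vehicle libraries for 4 genes (*Tsc22d3*, *Sgk1*, *Ddit4*, and *Zbtb16*), against 9.27% of all genes. The median log2 fold change was -0.33 over the 9 genes and -0.014 over all genes tested, and 7 of the 9 were below 0.

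With spironolactone the estimates for 8 of the 9 genes also lay below vehicle, again with 0 called, where 0.0181% of all genes were called. DESeq2 called 2, *Fkbp5* and *Klf9*, both lower, where it called 1.60% of the genes it gave an adjusted *P*, and limma-voom called 0 of the 9 and 0% of all genes. At an unadjusted *P* under 0.05, 5 of the 9 were lower (*Fkbp5*, *Klf9*, *Errfi1*, *Sgk1*, and *Tsc22d3*) and 0 were higher, where 4.07% of all genes were lower. The spironolactone libraries lay below all vehicle libraries for *Fkbp5*, *Klf9*, and *Errfi1*, 3 of the 9 genes, against 6.50% of all genes. The median log2 fold change was -0.43 over the 9 genes and 9.04e-05 over all genes. The 3 vehicle libraries serve as controls for either drug, so that a high or low vehicle pool moves both estimates together.

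The drugs were then compared directly, which tests the difference between their effects. *Errfi1* was lower with spironolactone than with prednisolone and *Zbtb16* was higher, 1 of the 9 genes in each direction, where 2.79% of all genes were called lower and 2.38% higher. At an unadjusted *P* under 0.05, 2 of the 9 (*Errfi1* and *Fkbp5*) were lower with spironolactone, against 11.1% of all genes, and 1 (*Zbtb16*) was higher, against 11.4%. The libraries of the drugs did not overlap for the same *Errfi1* and *Fkbp5*, both lower with spironolactone, against 15.2% of all genes, nor for *Zbtb16*, higher with spironolactone, against 15.1%. The median over the 9 genes was -0.11, and over all genes 0.026.

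**Figure D2:**
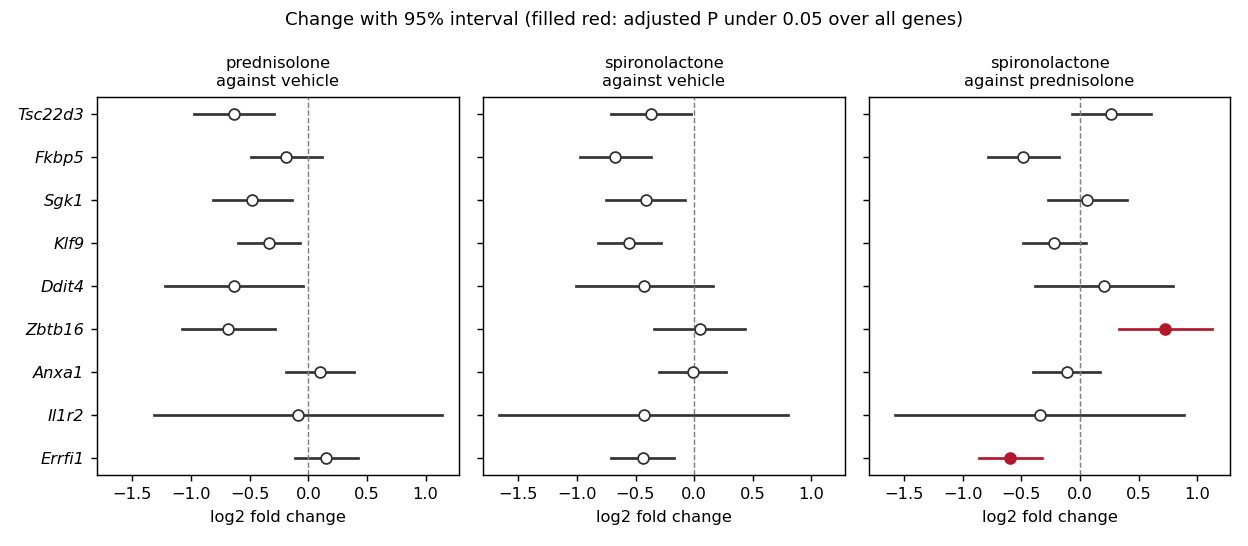
Log2 fold change (x axis) of each of the 9 genes in the 3 comparisons, with points for the edgeR estimate and bars for its 95% interval; red filled points have an adjusted P under 0.05 over all genes tested. The only filled points are *Zbtb16* (0.73) and *Errfi1* (-0.59) for spironolactone against prednisolone.

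*Tsc22d3* (chrX:139440091-139501408, minus strand) encodes GILZ, a leucine zipper protein that restrains NF-kB and AP-1 and carries part of the antiinflammatory action of glucocorticoids. Its level was 157, 146, and 167 CPM in vehicle replicates 1 to 3, 94.6, 113, and 156 CPM with spironolactone, and 87.9, 110.2, and 104 CPM with prednisolone. All prednisolone libraries lay below the vehicle libraries, whereas spironolactone replicate 3 reached the vehicle range. Prednisolone gave a log2 fold change of -0.64 ± 0.16 (SE), with a 95% interval of -0.98 to -0.30 and an edgeR adjusted *P* of 0.0675. Spironolactone gave -0.37 ± 0.16 (adjusted *P* = 0.495), or -0.59 without spironolactone replicate 3 and -0.22 without spironolactone replicate 1. The prednisolone difference passed the threshold in 5 of 10 alternative analyses, where adjusted *P* ranged from 3.36e-06 to 0.0740, and its log2 fold change stayed between -0.64 and -0.61. It also passed without spironolactone replicate 1 or spironolactone replicate 3 (adjusted *P* of 0.0221 and 0.0150), which enter the shared estimate of spread, and not without any 1 of the other 7 libraries (highest adjusted *P* 0.211).

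*Fkbp5* (chr17:28618058-28737521, minus strand) encodes FKBP51, an Hsp90 co-chaperone that lowers the affinity of GR for its ligand and so closes a feedback loop. Vehicle replicates 1 to 3 were at 75.1, 65.4, and 51.1 CPM. Spironolactone libraries were at 34.8, 39.4, and 46.2 CPM, all below vehicle, and prednisolone libraries, at 60.7, 57.2, and 50.4 CPM, overlapped vehicle. Spironolactone gave a log2 fold change of -0.67 ± 0.14 (95% interval -0.97 to -0.37; edgeR adjusted *P* = 0.128). The estimate for prednisolone was -0.19 ± 0.14 (adjusted *P* = 0.606), or -0.32 without vehicle replicate 3 and -0.05 without vehicle replicate 1. The direct difference between the drugs was -0.48 ± 0.14 (adjusted *P* = 0.0657), with no overlap between their libraries, and did not pass the threshold. It passed in 4 of 10 alternative analyses (DESeq2, edgeR on 2 groups, no low-count filter, and the *Xist* covariate; adjusted *P* 0.000460 to 0.0861 over the 10) and without vehicle replicate 1 or vehicle replicate 3 (adjusted *P* of 0.0208 and 0.0286), and its adjusted *P* reached 0.206 when another library was left out.

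*Sgk1* (chr10:21758083-21875802, plus strand), the gene with the full response element shown above, encodes a kinase that is a target of both GR and MR. Its vehicle libraries were at 445, 303, and 324 CPM, with replicate 1 well above the others. Spironolactone libraries were at 316, 234, and 255 CPM and prednisolone libraries at 271, 277, and 221 CPM. The prednisolone libraries lay below vehicle, and spironolactone replicate 1 lay within the vehicle range. The estimates, -0.48 ± 0.15 for prednisolone (edgeR adjusted *P* = 0.165) and -0.41 ± 0.15 for spironolactone (adjusted *P* = 0.427), are on the log2 scale. Without vehicle replicate 1 they were -0.29 and -0.23. The drugs differed by 0.06 ± 0.15 (95% interval -0.27 to 0.40; adjusted *P* = 0.861).

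*Ddit4* (chr10:59785491-59788492, minus strand) encodes REDD1, an inhibitor of mTORC1 that is induced by glucocorticoids and by hypoxia. It was at 9.94, 13.7, and 14.96 CPM in vehicle libraries, at 5.66, 10.2, and 12.8 CPM with spironolactone, and at 9.90, 8.47, and 6.50 CPM with prednisolone. Vehicle replicate 1 and prednisolone replicate 1 were almost level, so that these groups were barely apart, and spironolactone overlapped vehicle. On the log2 scale the difference from vehicle was -0.63 ± 0.27 for prednisolone (edgeR adjusted *P* = 0.306) and -0.43 ± 0.27 for spironolactone (adjusted *P* = 0.682). The spironolactone estimate was -0.70 without spironolactone replicate 3 and -0.16 without spironolactone replicate 1.

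*Klf9* (chr19:23118187-23148497, plus strand), a Krüppel-like transcription factor, was at 25.2, 24.5, and 21.3 CPM in vehicle libraries. It was at 17.3, 16.7, and 14.4 CPM with spironolactone and at 17.8, 21.5, and 17.0 CPM with prednisolone. Prednisolone replicate 2 lay just inside the vehicle range, whereas no spironolactone library did. Relative to vehicle, spironolactone libraries differed by -0.55 ± 0.12 (log2; 95% interval -0.82 to -0.29; edgeR adjusted *P* = 0.129). Prednisolone libraries differed by -0.33 ± 0.12 (adjusted *P* = 0.223). The difference between the drugs was -0.22 ± 0.13, with a 95% interval from -0.49 to 0.05.

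*Zbtb16* (chr9:48563141-48748664, minus strand) encodes PLZF, a zinc finger transcriptional repressor also known from innate-like lymphocytes. Vehicle libraries were at 9.27, 7.36, and 7.17 CPM, spironolactone libraries at 8.20, 7.30, and 9.09 CPM, and prednisolone libraries at 5.62, 5.29, and 3.92 CPM. Prednisolone was below every other library, and spironolactone overlapped vehicle. *Zbtb16* was higher with spironolactone than with prednisolone, by 0.73 ± 0.19 on the log2 scale (95% interval 0.33 to 1.13; edgeR adjusted *P* = 0.0377). Against vehicle prednisolone gave -0.68 ± 0.19 (adjusted *P* = 0.0858), and spironolactone gave 0.05 ± 0.18 (adjusted *P* = 0.968). The call between the drugs was lost without any 1 of the 6 drug libraries (adjusted *P* 0.0641 to 0.143) and with *Xist* as a covariate for the sex of the pools (adjusted *P* = 0.0618; 0.00812 to 0.0618 over 10 alternatives). Lymphocyte and natural killer genes also differed between these groups, as given below, and their part in the *Zbtb16* difference was not tested.

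*Anxa1* (chr19:20350792-20368374, minus strand) encodes annexin A1, a mediator of resolution that acts through formyl peptide receptors. It was at 567, 662, and 808 CPM in vehicle libraries, 686, 585, and 749 CPM with spironolactone, and 712, 803, and 667 CPM with prednisolone. The 3 groups overlapped. The 95% interval of the log2 fold change was -0.19 to 0.39 around 0.10 for prednisolone (edgeR adjusted *P* = 0.806) and -0.30 to 0.27 around -0.01 for spironolactone (adjusted *P* = 0.989).

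*Il1r2* (chr1:40113239-40164391, plus strand) encodes the decoy receptor for IL-1, which binds the cytokine without signaling. It varied most between pools of the same group, at 55.6, 116, and 163 CPM in vehicle, 39.9, 108, and 101 CPM with spironolactone, and 127, 111, and 77.1 CPM with prednisolone. All groups overlapped, and the coefficient of variation within vehicle was 48.2%. The log2 estimates were -0.09 ± 0.51 for prednisolone (95% interval -1.31 to 1.14; edgeR adjusted *P* = 0.964) and -0.43 ± 0.51 for spironolactone (95% interval -1.66 to 0.80; adjusted *P* = 0.875). Without the low-count filter the spironolactone estimate, again -0.43, had an adjusted *P* of 0.00790, against 0.785 to 0.932 in the other 9 alternatives. *Il1r2* is also abundant in neutrophils. Neutrophil genes summed to 779, 1073, and 4562 CPM in vehicle replicates 1 to 3, 1334, 1573, and 3416 CPM with spironolactone, and 1067, 1040.4, and 834 CPM with prednisolone. Genes of this list differed in pattern. *Ngp* was at 72.1, 11.1, and 1369 CPM in vehicle, 239, 190, and 1101 CPM with spironolactone, and 1.94, 25.0, and 0.267 CPM with prednisolone. *Cxcr2* was at 21.5, 55.4, and 89.9 CPM in vehicle, 32.9, 64.3, and 55.3 CPM with spironolactone, and 59.7, 62.0, and 47.7 CPM with prednisolone. The part of neutrophil genes in the *Il1r2* values was not tested. Without vehicle replicate 3 the prednisolone estimate was 0.30 in place of -0.09, and the spironolactone estimate -0.06 in place of -0.43. Across libraries, after group means were removed, *Il1r2* followed *Ddit4* most closely of the 36 pairs of the 9 genes (*r* = 0.92, 9 libraries, a description with no test).

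*Errfi1* (chr4:150938376-150955402, plus strand) encodes MIG6, a feedback inhibitor of the EGF receptor. Vehicle libraries were at 42.5, 45.1, and 36.8 CPM, spironolactone libraries at 28.5, 35.3, and 27.9 CPM, and prednisolone libraries at 49.6, 49.8, and 38.96 CPM. All spironolactone libraries lay below all others, and prednisolone overlapped vehicle. *Errfi1* was lower with spironolactone than with prednisolone, at a log2 fold change of -0.59 ± 0.13 (95% interval -0.86 to -0.32; edgeR adjusted *P* = 0.0179). Against vehicle spironolactone gave -0.44 ± 0.13 (adjusted *P* = 0.217), and prednisolone gave 0.15 ± 0.12 (adjusted *P* = 0.641), or 0.08 without vehicle replicate 3 and 0.26 without prednisolone replicate 3. The call between the drugs held in 10 of 10 alternative analyses (adjusted *P* 1.34e-05 to 0.0324) and was lost without spironolactone replicate 3, prednisolone replicate 1, or prednisolone replicate 2 (adjusted *P* 0.0802 to 0.0886).

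Among 28 further genes with textbook glucocorticoid induction, of which 27 were tested, several fell with prednisolone. In that comparison 6 of the 27 fell, where 0.758% of all genes did, and 0 rose. The clock gene *Per1* fell by 1.22 on the log2 scale (edgeR adjusted *P* = 0.00436). *Cebpb*, a transcription factor of myeloid differentiation, fell by 0.86 (adjusted *P* = 0.0108), and the MAP kinase phosphatase *Dusp1* by 0.70 (adjusted *P* = 0.0295). *Zfp36*, which destabilizes cytokine mRNA, fell by 0.66 (adjusted *P* = 0.0337), the G-protein regulator *Rgs2* by 0.59 (adjusted *P* = 0.00455), and the chemokine receptor *Cxcr4* by 0.54 (adjusted *P* = 0.0130). The median over the list was -0.16, with 21 of 27 below 0. *Per1* and *Rgs2* passed the threshold in all 10 alternative analyses and without any 1 library, and without prednisolone replicate 2 they were the only 2 called, whereas *Cebpb*, *Dusp1*, *Zfp36*, and *Cxcr4* each lost the call in at least 1 omission. The scavenger receptor *Cd163*, a macrophage gene, had an estimate of 0.86 ± 0.23 (adjusted *P* = 0.0992), with prednisolone libraries at 22.4, 29.9, and 26.2 CPM above vehicle at 19.8, 13.2, and 10.3 CPM.

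*Per1* is the gene of this list with the largest called change, and its window held 2 matches to GAACANNNTGTTC, letters found in 2.51% of windows. Both *Per1* matches lie in introns, at -1359 (chr11:68987888-68987930) and at 981 (chr11:68990228-68990270) relative to the canonical start site, on the plus strand. Of the same list *Glul* also held 2 matches and *Angptl4* held 1, which is the full element, and neither was called with prednisolone (log2 fold changes of 0.02 and 0.09).

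*Per1*, upstream: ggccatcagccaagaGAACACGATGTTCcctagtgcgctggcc
*Per1*, downstream: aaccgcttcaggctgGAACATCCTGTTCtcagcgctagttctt

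*Per1* was at 261, 209, and 264 CPM in vehicle libraries, 127, 151, and 167 CPM with spironolactone, and 131, 104, and 80.3 CPM with prednisolone. All libraries of both drugs lay below vehicle. With spironolactone 0 of the 27 genes were called by edgeR, 0 by limma-voom, and 3 by DESeq2 (*Per1*, *Dusp1*, and *Tnfaip3*, all lower), and at an unadjusted *P* under 0.05 in edgeR, 10 were lower and 1 was higher. Of all genes 4.07% were lower and 5.21% higher at this level, and DESeq2 called 1.60% of those it gave an adjusted *P*. The smallest *P* values were those of *Per1* (-0.72 ± 0.17, adjusted *P* = 0.156), *Dusp1* (-0.53 ± 0.15, adjusted *P* = 0.208), and the cell cycle inhibitor *Cdkn1a* (-0.37 ± 0.12, adjusted *P* = 0.311). Between the drugs *Rgs2* was higher with spironolactone (0.55 ± 0.09, adjusted *P* = 0.00478) and *Cd163* was lower (-0.92 ± 0.23, adjusted *P* = 0.0448), 1 of the 27 in each direction against 2.38% and 2.79% of all genes, whereas *Cebpb* (0.49 ± 0.15, adjusted *P* = 0.0680) and *Per1* (0.50 ± 0.17, adjusted *P* = 0.0987) did not pass.

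**Figure D3:**
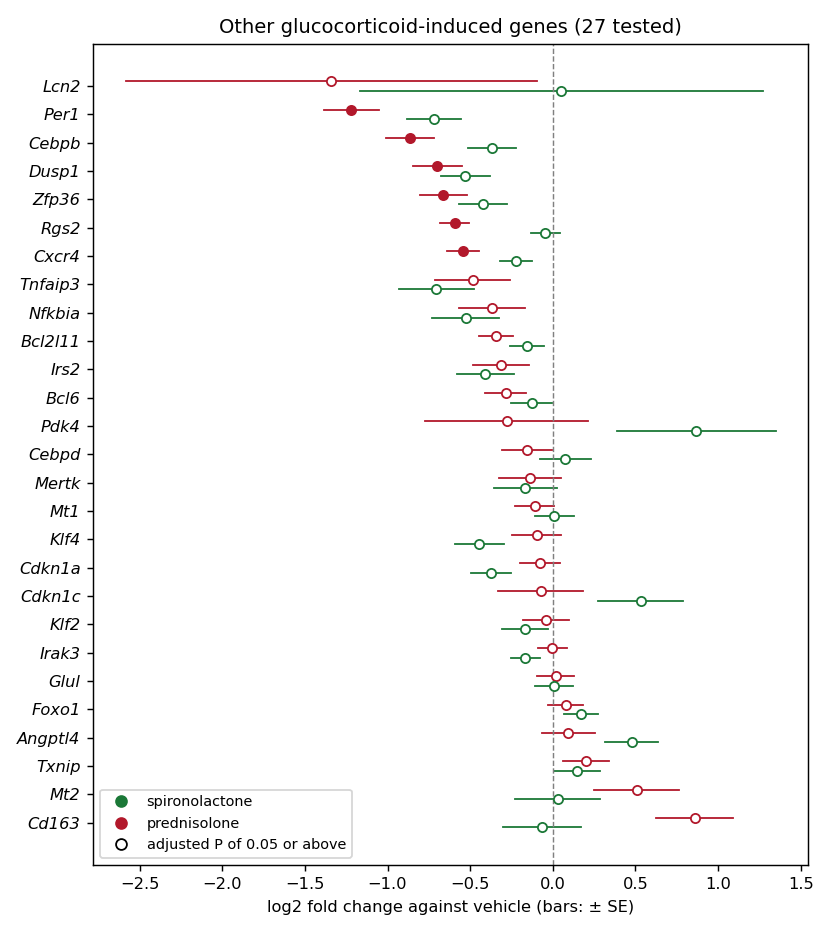
Log2 fold change against vehicle (x axis, bars ± SE) of the 27 further glucocorticoid-induced genes tested, for spironolactone (green) and prednisolone (red), ordered by the prednisolone estimate; filled points have an adjusted P under 0.05. The filled points are the 6 genes that fell with prednisolone, from *Per1* (-1.22) to *Cxcr4* (-0.54), and no green point is filled.

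The receptors and their machinery did not pass the test in any of the 3 comparisons. Of 10 genes (receptors, steroid enzymes, chaperones, and cofactors) edgeR, DESeq2, and limma-voom each called 0, and at an unadjusted *P* under 0.05 in edgeR only 1 was lower, with spironolactone against vehicle. *Nr3c1* was at 93.8, 93.1, and 95.7 CPM in vehicle, 94.0, 88.0, and 78.2 CPM with spironolactone, and 97.0, 85.9, and 95.8 CPM with prednisolone, overlapping throughout (-0.02 for prednisolone and -0.12 for spironolactone on the log2 scale). *Nr3c2* was between 0.0633 and 0.949 CPM over the 9 libraries. *Hsd11b1*, whose product regenerates active glucocorticoid, was at 2.16 ± 0.270 to 3.37 ± 3.50 TPM as group means, with its highest level in vehicle replicate 3 (8.66 CPM against 1.28 and 1.75 CPM in the other vehicle libraries). Of 21 paralogs and partners of the 9 genes, among them *Tsc22d1*, *Sgk3*, *Fpr2*, *Il1b*, and *Egfr*, edgeR and limma-voom also called 0 in each comparison. DESeq2 called 2, *Il1rap* and *Il1rn*, both lower with spironolactone than with prednisolone, where it called 1594 of the 29727 genes fitted in either direction. This total counts all genes fitted, unlike the DESeq2 shares against vehicle, which count only genes given an adjusted *P*. In edgeR 1, 2, and 3 were lower at an unadjusted *P* under 0.05 for prednisolone against vehicle, spironolactone against vehicle, and spironolactone against prednisolone, where 7.07%, 4.07%, and 11.1% of all genes were.

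Other transcripts moved with the same groups and are given here beside the 9 genes. Immediate early and heat shock genes, which respond to tissue dissociation as well as to signaling, summed to 14414 to 14990.5 CPM in vehicle libraries, 11249 to 11936 CPM with spironolactone, and 7669 to 11444 CPM with prednisolone, without overlap between vehicle and either drug. At an unadjusted *P* under 0.05, 13 of 15 such genes were lower with prednisolone and 8 with spironolactone, where 7.07% and 4.07% of all genes were. Of the 15 genes 7 fell with prednisolone, where 0.758% of all genes did, *Jun* (-1.06), *Atf3* (-1.07), *Junb* (-0.68), *Dusp1*, *Zfp36*, *Hspa1a* (-0.50), and *Hspa1b* (-0.41), and the last 2, *Jun*, and *Atf3* were higher with spironolactone than with prednisolone, where 2.38% of all genes were. *Dusp1* and *Zfp36* stand in this list and in the glucocorticoid list. Of 16 circadian genes 3 fell with prednisolone, *Per1*, *Nr1d1* (-1.14, adjusted *P* = 0.0457), and *Nr1d2* (-0.80, adjusted *P* = 0.0237), against the same 0.758%. The list had no common direction in that comparison, with 8 of 16 estimates below 0, a median of 0.04, and 4 genes lower and 4 higher (*Npas2*, *Per2*, *Cry1*, and *Cry2*) at an unadjusted *P* under 0.05. Between the drugs *Nr1d2* was higher (0.80) and *Per2* (-1.14) and *Cry1* (-0.64) were lower with spironolactone. These are 1 and 2 of the 16 genes, where 2.38% of all genes were called higher and 2.79% lower. The summed circadian level, most of it *Per1* and *Bhlhe40*, was 652 to 738 CPM in vehicle, 470.1 to 517 CPM with spironolactone, and 463 to 565 CPM with prednisolone, and *Per1* alone averaged 245, 149, and 105 CPM in these groups. The part of either list in the values of the 9 genes was not tested, and the time of day of collection is not given in the sources used here.

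**Figure D4:**
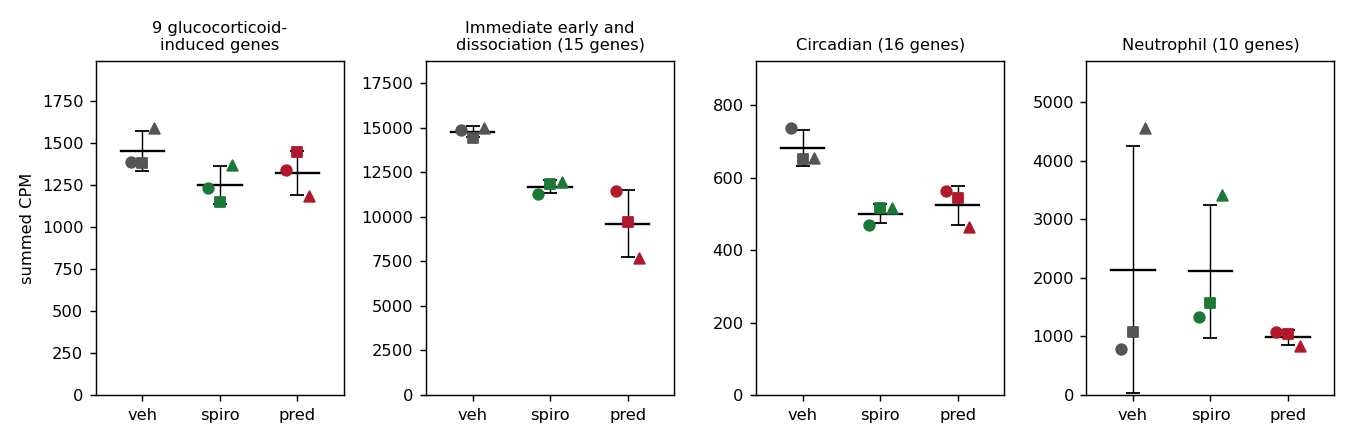
Summed CPM (y axis, linear from 0) of the 9 genes, of 15 immediate early and dissociation genes, of 16 circadian genes, and of 10 neutrophil genes in each library (circle, square, and triangle for replicates 1, 2, and 3), with means (lines) and ± SD (bars, n = 3). The summed level of the 9 genes, most of it *Anxa1* and *Sgk1*, was 1384 to 1592 CPM in vehicle, 1149 to 1371 with spironolactone, and 1186 to 1445 with prednisolone, while the sum of immediate early genes and that of circadian genes, most of the latter *Per1* and *Bhlhe40*, were highest in vehicle and neutrophil genes were highest in vehicle replicate 3.

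Markers of other cells also differed in level between groups. With spironolactone against vehicle 8 of 9 endothelial genes, 7 of 9 skeletal muscle genes, 6 of 11 lymphocyte and natural killer genes, 4 of 8 fibro-adipogenic genes, and 4 of 8 dendritic genes were higher at an unadjusted *P* under 0.05, where 5.21% of all genes were. Of these lists edgeR and limma-voom called 0 in this comparison, and DESeq2 called 4, 5, 2, 2, and 2 higher, where it called 1.60% of the genes it gave an adjusted *P* in either direction. The endothelial genes summed to 317 to 392 CPM with spironolactone, 215 to 248 CPM in vehicle, and 252 to 296 CPM with prednisolone. The skeletal muscle genes summed to 431 to 729.8, 228 to 354, and 352 to 555 CPM in the same order. Fibro-adipogenic genes summed to 1304 to 1760, 1094 to 1403, and 1350 to 1412 CPM, and their groups overlapped. Dendritic genes, most of whose sum is *Itgax*, summed to 579.5 to 742 CPM with prednisolone, 387 to 411 CPM in vehicle, and 343 to 529 CPM with spironolactone. With prednisolone 4 of the 8 were higher than vehicle at an unadjusted *P* under 0.05, where 7.13% of all genes were, and *Xcr1* (0.04) and *Clec9a* (-0.22) were not among them. Of 11 lymphocyte and natural killer genes tested, 6 were higher with spironolactone than with prednisolone (*Ncr1*, *Nkg7*, *Gzma*, *Gzmb*, *Cd79a*, and *Cd79b*, by 0.81 to 3.28 on the log2 scale), from low levels such as 6 to 23 counts of *Ncr1* per prednisolone library and 39 to 71 per spironolactone library, where 2.38% of all genes were called higher. The summed list, dominated by *Il7r*, was 175 to 245 CPM with spironolactone and 236 to 250.4 CPM with prednisolone. With prednisolone against vehicle 0 of these 11 genes were called, and 9 of the 11 estimates were below 0, with a median of -0.64. In edgeR 3 of them were lower at an unadjusted *P* under 0.05, where 7.07% of all genes were. Of 6 eosinophil and mast cell genes tested, *Siglecf* and *Ccr3* fell with prednisolone (-0.65 and -1.20), where 0.758% of all genes did, while the mast cell genes *Cpa3*, *Mcpt4*, and *Kit* had estimates of 0.58 to 0.82 that did not pass, and the median was -0.03. *Siglecf* and *Ccr3* were higher with spironolactone than with prednisolone (0.65 and 1.54), as were the endothelial genes *Pecam1*, *Cdh5*, and *Tie1* (0.88 to 1.13), where 2.38% of all genes were called higher. Of 10 macrophage genes *C1qb* (0.62) and *C1qc* (0.51) were called higher and *Lyve1* (-1.60) lower with spironolactone than with prednisolone, where 2.38% and 2.79% of all genes were. At an unadjusted *P* under 0.05 in edgeR, 6 of the 10 were higher and 2 lower, where 11.4% and 11.1% of all genes were. The macrophage genes summed to 8777 to 9578 CPM with spironolactone, 7637 to 8857 CPM in vehicle, and 7015 to 7674 CPM with prednisolone. Monocyte genes summed to 1938 to 2283, 1572 to 3316, and 2805 to 3682 CPM in the same order. The largest part of the prednisolone sum was *Chil3*, at 999 to 1259 CPM. The monocyte genes *Ly6c2* (77.6 to 181 CPM) and *Plac8* (30.9 to 85.9 CPM) lay lower with prednisolone than with spironolactone (223 to 266 and 109 to 116 CPM). Between the drugs only *F13a1* (-0.88) of 8 monocyte genes was called, with 4 of the 8 estimates below 0. Of 8 dendritic genes only *Itgax* (-0.68) was called, with 3 of the 8 below 0 and a median of 0.14. Both calls were lower with spironolactone, where 2.79% of all genes were. *Itgax* (0.80) and the muscle gene *Myh1* (1.07) rose with prednisolone against vehicle. They were 1 of 8 dendritic and 1 of 9 skeletal muscle genes tested, where 167 of all 16618 genes were called higher. Of the 10 neutrophil genes 0 were called by edgeR in any comparison, with 2 lower at an unadjusted *P* under 0.05 for prednisolone against vehicle and 3 higher for spironolactone against prednisolone (7.07% and 11.4% of all genes), where DESeq2 and limma-voom each called 1, *Retnlg*. Between the drugs these methods called 1594 of 29727 and 822 of 16618 genes, the first total again being all genes fitted by DESeq2. The part of these cells in the values of *Errfi1*, *Zbtb16*, and the other 7 genes was not tested.

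For the 4 genes with the smallest *P* values, the transcripts with the most similar levels over the 9 libraries were listed by Pearson correlation of log2 CPM, as a description with no test. *Tsc22d3* was closest to *Tbc1d10a* (*r* = 0.97, Spearman rho 0.92, and *r* = 0.95 without vehicle replicates 1 and 3, the libraries farthest from its median), *Tmem87a*, and *Cdkn2aip*. *Fkbp5* was closest to *Gm33251*, *Ccnt1*, and the clock-associated repressor *Bhlhe40* (*r* = 0.94 to 0.95, and 0.86 to 0.91 without vehicle replicate 1 and spironolactone replicate 1). *Klf9* was closest to *Zfyve16*, *Nufip2*, and *Hnrnph1* (*r* = 0.93 to 0.94), and *Errfi1* to *Dennd4a*, *Micu3*, and *Mdm1* (*r* = 0.95 to 0.96). The points share group, library, and depth, and each transcript named was picked as the highest among the 16618 genes tested.

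The genes differ in how cleanly their counts can be assigned. Exons of *Fkbp5*, *Sgk1*, *Klf9*, and *Errfi1* overlap annotated genes on the opposite strand, and the strand setting of the counting is not given in the sources used here, so that reads of such partners cannot be told apart from theirs. Of these partners only *Gm22146*, opposite *Fkbp5*, had a row in the counts, with 37 counts in the 9 libraries together. No exon of *Tsc22d3*, *Ddit4*, *Zbtb16*, *Anxa1*, or *Il1r2* overlaps an exon of another annotated gene.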

How the data were processed

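RNA of sorted CD45+CD11b+ quadriceps cells was sequenced in 9 libraries, 3 per group. The authors aligned reads with HISAT2 2.2.1 to mm39 and counted them per gene with HTSeq 0.11.3 (versions from the submitters' processing notes), and the deposited values are raw whole-number counts without normalization. The annotation release and strand setting are not given in the sources used here. The closing lines that name no gene (17.2% to 21.8% of a library) were left out. Deposited tables of the authors' own comparisons, with fold changes and *P* values from DESeq2 1.32.0, were not used.

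Counts were analysed in R 4.3.3 with edgeR 4.0.16 (filterByExpr with minimum count 10 and total 15, TMM, glmQLFit with robust=TRUE, with all 9 libraries together). Tests were two-sided and *P* values were adjusted by Benjamini-Hochberg over 16618 genes. SE is the log2 fold change divided by the square root of *F*. Similarity used log2 CPM with prior count 2. The scripts were tested on simulated data. No libraries were identical, and chi-square per degree of freedom within groups was 18.7 to 61.4. TPM used summed exon lengths of GENCODE M39 (40043 of 50559 symbols, 90.9% to 94.9% of counts), as did positions and motif searches (GRCm39).

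The 9 genes and all lists were chosen with earlier results of these data known. Named beside the 9 were list genes past the threshold in any comparison, the 3 further glucocorticoid-induced genes with the smallest *P* per comparison, *Nr3c1*, *Nr3c2*, and *Hsd11b1*, and 3 most similar transcripts for 4 genes. Other list genes named fall outside this rule, as sort markers, as examples of a list, or for values already seen. The last are genes like *Glul*, *Angptl4*, *Xcr1*, *Clec9a*, *Ngp*, *S100a9*, *Csf3r*, *Cxcr2*, *Chil3*, *Ly6c2*, and *Plac8*. Alternatives were DESeq2 1.42.0, limma-voom (limma 3.58.1), edgeR on 2 groups, RLE or library totals, a replicate block, no filter, an *Xist* covariate, robust=FALSE, a stricter filter of 10 counts in each library, a threshold of 0.1, and omission of each library.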

Additional observations from a re-analysis of the deposited data

How the results depend on the processing

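The number of the 9 genes called for prednisolone against vehicle, 0 with edgeR, was 3 with DESeq2, 4 without the low-count filter (which called 1019 of 29739 genes), 1 when edgeR was fitted on 2 groups, 1 with the replicate block, 1 with the *Xist* covariate (239, 336, and 281 genes in all for these 3 fits), 2 at a threshold of 0.1, and 0 to 1 when 1 library was left out. These omissions called 69 to 826 genes in all. The 2 that called *Tsc22d3* called 336 genes without spironolactone replicate 1 and 257 without spironolactone replicate 3. For spironolactone against vehicle the number of the 9 genes called was 2 with DESeq2, 5 without the filter (528 of 29739 genes), and 0 in all 9 fits without 1 library (0 to 34 genes in all). For spironolactone against prednisolone, with 2 called of 859 genes in all, it was 3 with DESeq2 (1594 genes), with edgeR on 2 groups (1598), and at a threshold of 0.1, 4 without the filter (1940 of 29739 genes), and 0 to 3 when 1 library was left out, with 3 without vehicle replicate 1 (1898 genes) or vehicle replicate 3 (887) and 0 without spironolactone replicate 3, prednisolone replicate 1, or prednisolone replicate 2 (232 to 304). No total over all genes is given here for the threshold of 0.1, so the counts of 2 and 3 at that threshold have no background beside them. Replicate numbers did not pair the libraries (correlations of same-numbered deviations -0.038 to 0.151, and not every library correlated best with its own number). The replicate block called 336 of all genes with prednisolone in place of 293. Estimates near 0 changed sign. *Il1r2* with prednisolone was 0.0173 with limma-voom, 0.0890 with the replicate block, and -0.408 to 0.295 over omissions of 1 library. Over these omissions *Anxa1* ranged from -0.0148 to 0.246 with prednisolone and from -0.128 to 0.126 with spironolactone, *Zbtb16* from -0.0351 to 0.172 with spironolactone, and, between the drugs, *Sgk1* from -0.0693 to 0.151 and *Ddit4* from -0.0639 to 0.474. The cause of these differences was not tested. Of the 27 estimates no other changed sign. The standard errors of *Ddit4* and *Il1r2* were the largest of the 9 genes.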
